A study of Mus musculus with 26 samples.

Results

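Retinal ganglion cells are the output neurons of the retina, and 10 genes commonly used to mark them were followed here through 5 drug experiments in the rd10 mouse. The genes were Rbpms, Pou4f1, Pou4f2, Sncg, Nefl, Nefm, Nefh, Thy1, Slc17a6 and Isl2, taken by symbol from 37991 counted genes, 37205 of which had a symbol in the annotation. Each symbol matched 1 gene. The choice followed their use as markers, with no measured value in the rule, though earlier results of these data were known.

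The rd10 mouse (B6.CXB1-Pde6brd10/J) carries a mutation in Pde6b, the beta subunit of the rod phosphodiesterase, and loses its rods in the first weeks of life. All mice, controls included, had this mutation. They received intraperitoneal injections of an inhibitor or of a control solution from PN9, and retinas were taken at PN24. By the paper, DZNep was given daily at first and then every second day at a lower dose, and the other inhibitors daily. Whole-retina libraries comprised 4 saline and 2 DZNep, 3 control and 3 UNC1999, 2 saline and 2 UNC0642, and 3 saline and 3 Romidepsin libraries. The authors used DZNep and UNC1999 as inhibitors of EZH2, which methylates H3K27, and described UNC1999 as the more specific. UNC0642 acts on EHMT1 and EHMT2, which methylate H3K9, and Romidepsin on histone deacetylases. In the fifth experiment, rods were sorted by their EGFP, with 2 saline libraries and 2 from mice given the LSD1 inhibitor GSK2879552. These mice were a cross of rd10 with B6.Cg-Tg(Nrl-EGFP)1Asw/J, in which EGFP is made in rods under the Nrl promoter. UNC1999 was given in a diluent with DMSO. For its controls the paper names saline in the text on sequencing and only diluent in a figure legend. Whether the controls received DMSO is therefore unclear, and the compound and its diluent may not be told apart. The labels number the replicates but do not say whether each library came from 1 mouse, so p-values measure the spread between these libraries. Libraries held 13732959 to 36354094 counts for retinas and 7289460 to 19864491 for sorted rods.

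Ganglion cells collect the signals of bipolar and amacrine cells and send them to the brain along axons of the optic nerve. Rods lie at the other end of this chain, and in rd10 mice they die first. The genes fall into groups by role. Pou4f1, Pou4f2 and Isl2 encode transcription factors that set ganglion cell identity and subtype, and Rbpms encodes an RNA-binding protein found in nearly all ganglion cells. Nefl, Nefm and Nefh encode the light, medium and heavy chains of the neurofilaments that fill large axons. Thy1 encodes a surface glycoprotein, Sncg encodes gamma-synuclein, and Slc17a6 encodes VGLUT2, which loads glutamate into synaptic vesicles. In RNA from whole retina, fewer ganglion cells and less RNA per ganglion cell cannot be told apart.

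The drugs act on chromatin enzymes, and promoters with many CpG pairs are the usual targets of Polycomb and its EZH2 subunit, so the promoters of the genes were examined. RefSeq promoters (250 bases before to 50 bases after the start, build GRCm38.p6) were found for 5 of the 10 genes. The most CpG-rich of these (Pou4f1), that of its relative Pou4f2, that of Isl2, which had no counts here, and a CpG-poorer one (Sncg) are shown so that the range can be seen. Each is printed in the direction of transcription, and capitals mark CG.
Pou4f1: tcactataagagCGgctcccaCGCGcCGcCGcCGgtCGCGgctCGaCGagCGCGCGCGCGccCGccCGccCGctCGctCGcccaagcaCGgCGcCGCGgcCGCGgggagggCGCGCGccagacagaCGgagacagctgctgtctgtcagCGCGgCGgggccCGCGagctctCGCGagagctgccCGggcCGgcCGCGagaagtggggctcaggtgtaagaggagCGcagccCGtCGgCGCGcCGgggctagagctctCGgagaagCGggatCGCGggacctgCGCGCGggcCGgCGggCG
Pou4f2: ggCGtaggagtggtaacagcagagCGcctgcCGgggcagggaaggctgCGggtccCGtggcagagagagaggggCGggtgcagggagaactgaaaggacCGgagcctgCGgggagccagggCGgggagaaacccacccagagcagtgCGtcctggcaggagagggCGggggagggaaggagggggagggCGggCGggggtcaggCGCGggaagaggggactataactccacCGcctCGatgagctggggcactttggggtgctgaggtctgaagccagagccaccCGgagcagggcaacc
Isl2: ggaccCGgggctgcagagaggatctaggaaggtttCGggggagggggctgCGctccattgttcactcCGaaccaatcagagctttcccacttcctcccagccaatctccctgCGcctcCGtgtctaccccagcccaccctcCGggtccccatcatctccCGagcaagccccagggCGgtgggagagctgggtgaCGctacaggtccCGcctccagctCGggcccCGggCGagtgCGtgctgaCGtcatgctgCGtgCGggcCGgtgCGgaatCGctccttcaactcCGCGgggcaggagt
Sncg: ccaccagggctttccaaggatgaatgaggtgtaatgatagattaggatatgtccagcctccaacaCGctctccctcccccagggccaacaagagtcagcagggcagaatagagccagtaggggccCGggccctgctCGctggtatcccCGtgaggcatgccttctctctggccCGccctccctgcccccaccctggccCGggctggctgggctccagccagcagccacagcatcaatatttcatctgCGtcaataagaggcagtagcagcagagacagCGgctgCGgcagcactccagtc
The Pou4f1 window (chr14:104467950-104468249, minus strand) held 57 CG pairs, and 99.8% of 32851 mouse promoters of the same length held fewer. The window of Isl2 (chr9:55540899-55541198, plus strand) held 23 and that of Pou4f2 (chr8:78436598-78436897, minus strand) 18. The Sncg window (chr14:34374620-34374919, minus strand) held 9, close to the median of 7 over all promoters. The 2 starts of Slc17a6 held 8 and 3. Pou4f1, Pou4f2 and Isl2 therefore lay in the CpG-rich part of the range, and Sncg and Slc17a6 near its middle or below. The letters say nothing on whether a factor was bound there.

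In the 12 control retinas, 9 of the 10 genes were read at a clear level. Levels are CPM, counts of a gene scaled to the total of its library with the TMM factors of edgeR, and between genes they were compared only per kilobase of exon. Per kilobase, Nefl was highest with 258 ± 34.5 CPM (SD, n = 12 here and for each level in this paragraph), followed by Thy1 with 199 ± 28.9 and Sncg with 162 (138 to 204). The ranges of these neighbours overlapped. Nefm followed with 58.0 ± 7.27 and Nefh with 48.0 ± 6.86, again with overlapping ranges, and every Nefm value lay under every Sncg value. Slc17a6 reached 26.7 ± 2.97 CPM per kilobase. Pou4f1 with 18.3 ± 2.16 and Rbpms with 17.6 ± 3.20 were close to each other, and Pou4f2 came last with 4.82 ± 0.901. The coefficient of variation over the 12 libraries ran from 11.1% (Slc17a6) to 18.7% (Pou4f2).

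Isl2 (ENSMUSG00000032318, chromosome 9 from 55386479 to 55393987, plus strand, build NCBIM37 as for all genes below) was listed at 0 in all 26 libraries. A count of 3, taken as the floor, is 0.0825 CPM in the deepest library and 0.412 CPM in the shallowest. Isl2 was 1 of 2 genes with no count in any retina among 224 genes in the marker lists used here. Its relative Isl1, a LIM factor of ganglion, bipolar and amacrine cells, stood at 119 ± 14.0 CPM (SD, n = 12). Isl2 is a known ganglion cell gene, and this table does not show it. It could not be tested, and 9 of the 10 genes passed the filter on low counts in each retina experiment.

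Nefl (chromosome 14 from 68701920 to 68707152, plus strand) and Nefm (chromosome 14 from 68700647 to 68742903, minus strand) share 1108 exon bases on opposite strands in the annotation. Whether reads were counted by strand is not given in the sources used here, so those in the shared stretch may have been lost or given to either gene, and both values are uncertain to that degree. No other gene of the 10 shared exon bases with a neighbour.

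**Figure D1:**
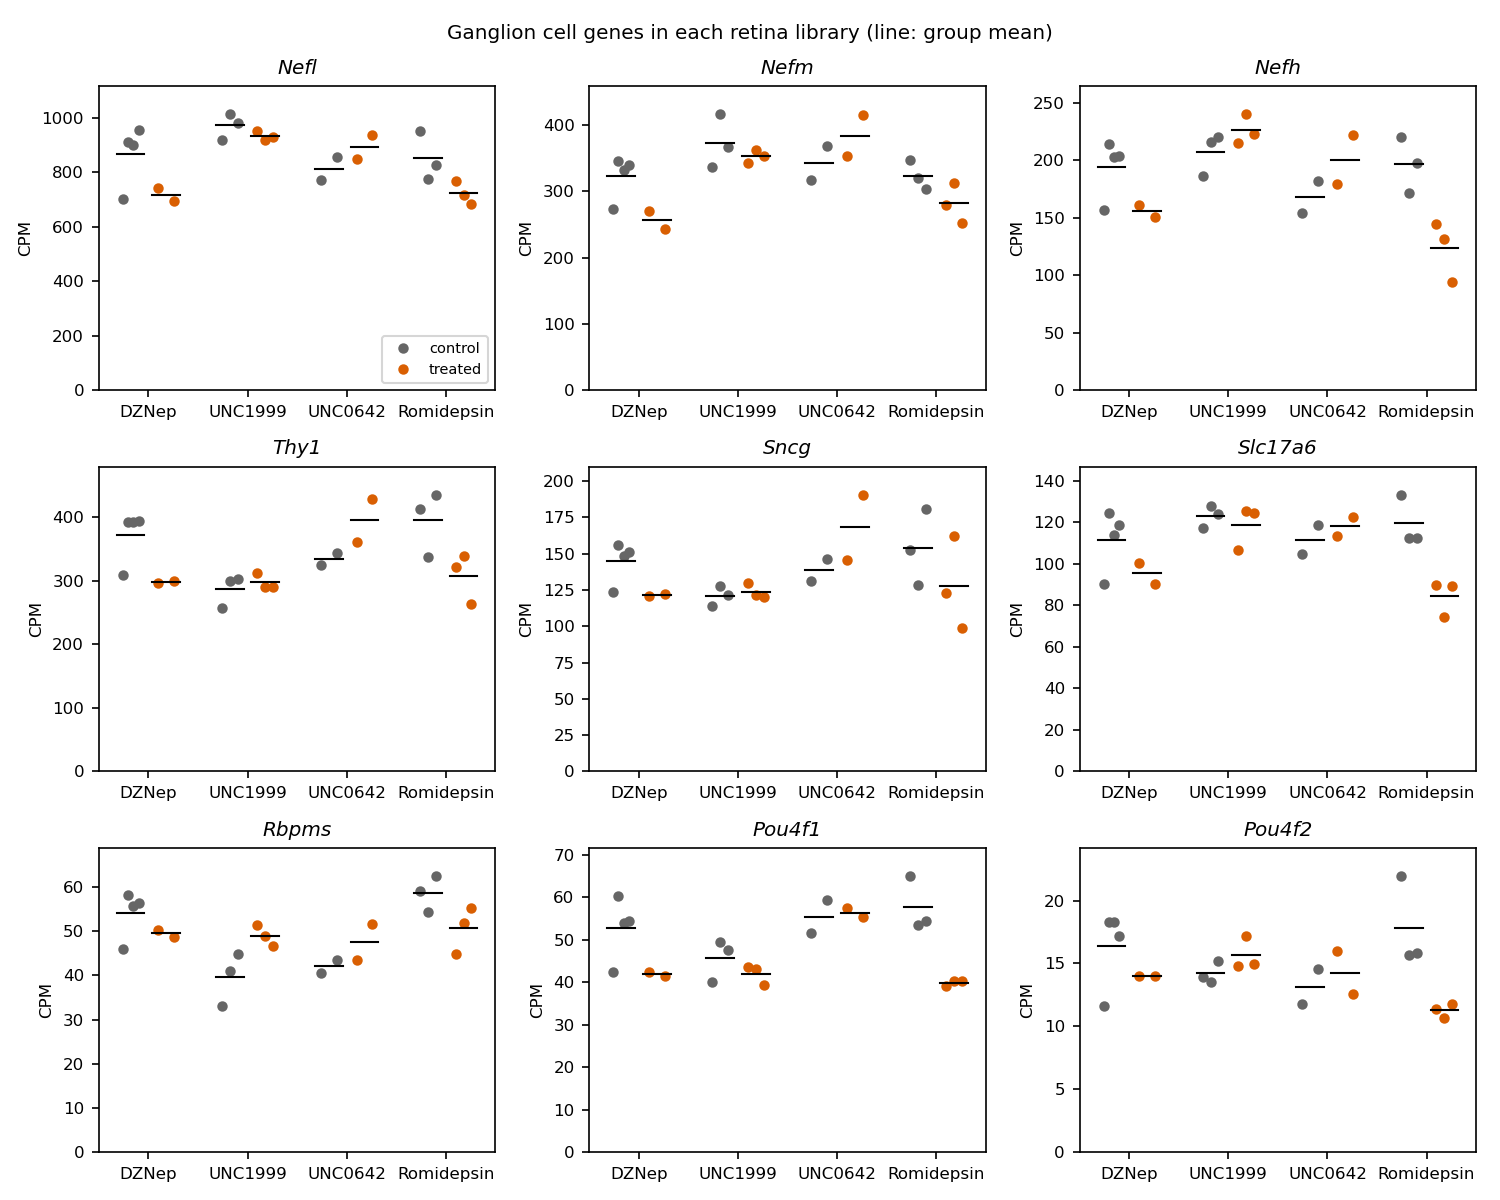
CPM of the 9 ganglion cell genes with counts in each of the 22 retina libraries, by experiment, with control libraries in grey, treated libraries in orange and group means as black lines; each vertical axis starts at 0. After Romidepsin the treated points of Nefh, Pou4f1, Pou4f2 and Slc17a6 lie below every control, and in the DZNep experiment control replicate 1 lies near the treated points for most genes.

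All 9 tested ganglion cell genes had lower estimates after DZNep, where 50.1% of all genes did, and Nefm and Thy1 passed the test. Nefm (ENSMUSG00000022054) stood at 274, 346, 332 and 339 CPM in the 4 controls and at 270 and 243 CPM in the 2 treated retinas. Both treated values lay below all controls, though the higher one lay just under control replicate 1. The log2 fold change was −0.33 (standard error 0.0936, adjusted p = 0.0355 by edgeR's quasi-likelihood test). Thy1 (ENSMUSG00000032011, chromosome 9 from 43851467 to 43856662, plus strand) stood at 310, 392, 392 and 395 CPM in controls and at 297 and 301 CPM after DZNep. The treated values lay under all controls and close to control replicate 1, and the estimate was −0.32 (standard error 0.0964, adjusted p = 0.0447). A gene is called here at an adjusted p under 0.05 over all genes tested, and 9.72% of the 16477 genes tested were called lower after DZNep, against 2 of 9 ganglion cell genes. At an unadjusted p under 0.05 there were 6 of 9, against 36.5% of all genes, and none passed with an absolute log2 fold change above 1, against 1.71%. In both directions together 22.7% of all genes were called.

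Thy1 is also made by T cells. Of 7 T cell genes 3 were tested, with a median of −0.95. Lck was called lower (−0.95, adjusted p = 0.0413), and Cd4 (−1.41, adjusted p = 0.0842) and Cd8a (0.67, adjusted p = 0.129) were not. Cd3d, Cd3e and Cd3g were between 0 and 0.276 CPM in controls and at 0 in both treated libraries. The 2 T cell genes with a mean of at least 1 CPM summed to 2.46 to 3.68 CPM in controls and 2.23 to 2.86 CPM after DZNep. Their part in the fall of Thy1 was not tested. The other neurofilament genes had estimates of the same size. Nefh (ENSMUSG00000020396, chromosome 11 from 4838757 to 4848067, minus strand) stood at 156, 214, 203 and 204 CPM in controls and at 161 and 150 CPM after DZNep (log2 fold change −0.32, adjusted p = 0.0720). Control replicate 1 fell between the treated values, so the groups overlapped. Nefl (ENSMUSG00000022055) had a log2 fold change of −0.27 (adjusted p = 0.116) with the same overlap. The factors Pou4f1 (−0.33, adjusted p = 0.0793) and Pou4f2 (−0.22, adjusted p = 0.373), the transporter Slc17a6 (−0.22, adjusted p = 0.190) and Rbpms (−0.13, adjusted p = 0.350) were not called. Sncg (ENSMUSG00000023064, chromosome 14 from 35183460 to 35187975, minus strand) was at 124 to 156 CPM in controls and at 121 and 123 CPM after DZNep, apart from all controls (−0.25, adjusted p = 0.0667). Thus 3 genes lay below every control, where 21.5% of all genes did. The median over the 9 genes was −0.27, and that of all genes tested −0.00057.

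These calls depended on single libraries. Control replicate 1 was the lowest control for all 9 genes, for example for Pou4f2 with 11.7 CPM against 17.2 to 18.3 CPM in the other 3. Without it all 9 genes were called lower, as were 2176 of all 16336 genes tested. Without any 1 of the other 3 controls no ganglion cell gene was called, against 2347 to 2924 of all genes in both directions. Without treated replicate 1 or 2, which leaves 1 treated library, the median of the 9 genes was −0.31 or −0.26. After DZNep all 22 genes of a rod list were called higher, with a median of 1.08. Their summed level was 24550 to 40004 CPM in controls and 71692 to 74251 CPM after DZNep. The lists of other inner retina cells moved with the ganglion cell genes. The median was −0.21 over 14 amacrine genes (6 called lower) and −0.24 over 15 bipolar genes (9 called lower and 1 higher). It was −0.45 over 12 Müller glia genes (11 called lower) and −0.40 over 7 horizontal cell genes (5 called lower). When libraries were scaled to the amacrine and bipolar genes in place of TMM, the median of all genes moved by 0.201, no ganglion cell gene was called, and the estimates ran from −0.12 to 0.081, with Rbpms above 0. Of all calls, 42.9% were lower under TMM and 5.41% under this scaling. Relative to the median of all genes, the ganglion cell genes were at −0.27 under both scalings. A scaling moves all genes by nearly the same amount, so this agreement was fixed in advance and tests nothing. The part of the rod transcripts and of the other inner retina cells in the fall of Nefm and Thy1 was not tested.

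Ganglion cell genes outside the 10 had lower estimates too. Of 18 tested genes of a second ganglion cell list, 17 had lower estimates, 9 were called lower and none higher, with a median of −0.27. The list includes Rbpms2, Pou4f3 and Isl1, and it shares Gap43, Stmn2 and Tubb3 with the axonal list. Those with the smallest p-values were Chrnb3, a nicotinic receptor subunit (log2 fold change −0.44, adjusted p = 0.0107), Spp1, which encodes osteopontin and is also made by microglia (−0.56, adjusted p = 0.0188), and Uchl1, a neuronal ubiquitin hydrolase (−0.31, adjusted p = 0.0222). Without control replicate 1, 15 of them were called, without treated replicate 1 or 2 none was (Kif5c and Mtap1b below also lost their calls, and Stmn4 did without treated replicate 1), and without another control from 2 to 5 were. Among 20 genes of the axonal cytoskeleton and its transport, 11 were called lower, such as the kinesin gene Kif5c (−0.35, adjusted p = 0.00783), and 1 higher, Mtap1b (0.29, adjusted p = 0.0110), which encodes a microtubule-associated protein. Of 14 tested genes that ganglion cells raise after optic nerve injury, 3 were called higher and 3 lower. Over all 16477 genes tested, 2133 were called higher and 1601 lower. The injury list does not mark ganglion cells, and in sorted control rods its median level was 34.9% of that in control retinas. Gadd45a, a growth arrest gene, was at 0.68 (adjusted p = 0.00247), Ddit4, an inhibitor of mTORC1, at 0.55 (adjusted p = 0.00247) and the stathmin gene Stmn4 at −0.43 (adjusted p = 0.00770).

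Family relatives of the 10 genes were tested as well. Prph, which encodes peripherin and is a partner of the neurofilaments, was at 16.3 to 20.3 CPM in the 4 controls and at 12.9 and 11.1 CPM after DZNep (log2 fold change −0.57, adjusted p = 0.00990). It was called lower and its groups were apart. Without treated replicate 2 it was not called (−0.48), and against the 9 controls of the same library series the estimate was −1.53 and not called. Ina, which encodes the neurofilament protein alpha-internexin, was called lower at −0.33 (adjusted p = 0.0227), as was Isl1 at −0.26 (adjusted p = 0.0262). Without either treated library, or without control replicate 2 or 3, neither was called, and Isl1 was also lost without control replicate 4. The vesicular glutamate transporters went apart. Slc17a8 (VGLUT3, of a class of amacrine cells) was called lower at −0.48 (adjusted p = 0.0195), which was −0.24 (adjusted p = 0.147) without treated replicate 1 and was not called without control replicate 2 either, and Slc17a7 (VGLUT1, of photoreceptors and bipolar cells) was called higher at 0.48 (adjusted p = 0.00357), while Slc17a6 was not called.

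**Figure D2:**
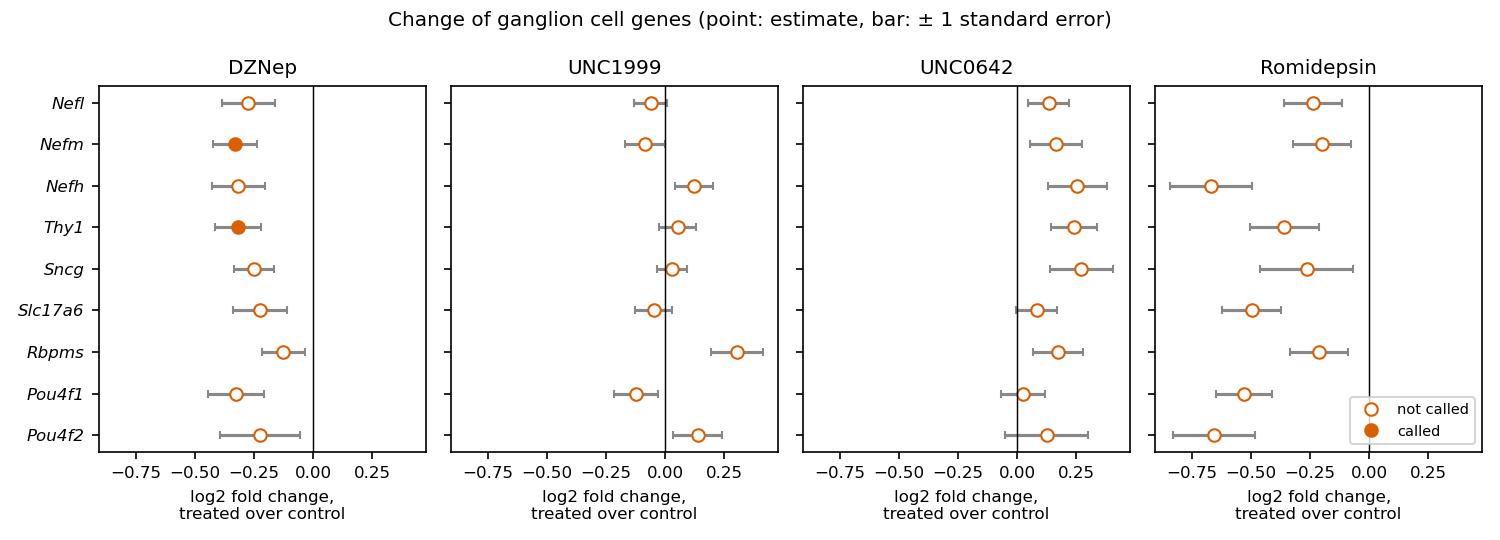
Log2 fold change of treated over control (horizontal axis, with bars of 1 standard error) for 9 ganglion cell genes in the 4 retina experiments; filled points were called. The points lie left of 0 for all 9 genes after DZNep and Romidepsin, right of 0 for all 9 after UNC0642 and on both sides after UNC1999, and the only filled ones are Nefm and Thy1 after DZNep.

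After UNC1999 no ganglion cell gene was called by the quasi-likelihood test, the likelihood ratio test or DESeq2, and 1 had an unadjusted p under 0.05, against 23.6% of all genes. Of 15775 genes tested, 0.602% were called. The estimates of the 9 genes ran from −0.12 (Pou4f1) to 0.31 (Rbpms), 4 of them below 0 (50.4% of all genes), with a median of 0.031 against −0.0020 for all genes. Rbpms (ENSMUSG00000031586, chromosome 8 from 34893116 to 35040313, minus strand) stood at 32.9, 40.8 and 44.7 CPM in the controls and at 51.2, 48.9 and 46.5 CPM after UNC1999. The treated values were above all controls, and the log2 fold change was 0.31 (standard error 0.1104, adjusted p = 0.149). It was the single ganglion cell gene whose groups did not overlap, and 13.9% of all genes lay above every control. Without control replicate 3, Rbpms was called, and without any other library it was not.

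Nefl stood at 920, 1016 and 983 CPM in the UNC1999 controls and at 951, 918 and 930 CPM in the treated retinas. The groups overlapped (log2 fold change −0.060, standard error 0.0702). Sncg stood at 114, 128 and 122 CPM in controls and at 130, 122 and 120 CPM after treatment (0.031, standard error 0.0643). The standard errors of the 9 genes were between 0.0643 and 0.1104 on the log2 scale, the lowest range of the 4 retina experiments. In the same libraries the rod genes had higher estimates in all 22 cases, with a median of 0.94 and summed levels of 26031 to 47853 CPM in controls and 63762 to 85821 CPM after UNC1999.

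Among the relatives, Rbpms2, the paralog of Rbpms, had a log2 fold change of 0.29 (adjusted p = 0.0837), with its groups apart. Pou4f3, the third gene of the Pou4f family, was at 0.31 (adjusted p = 0.254) and Ina at −0.013 (adjusted p = 0.930). Prph was at 59.9, 59.2 and 22.2 CPM in controls and at 11.2, 17.5 and 15.6 CPM after UNC1999. All treated values were below all controls, with control replicate 3 well under the other controls, and the log2 fold change of −1.67 was not called (adjusted p = 0.0589). None of the 18 tested genes of the second ganglion cell list was called by the quasi-likelihood test, and their median was 0.0038. At an unadjusted p under 0.05 there were 4, against 23.6% of all genes. The likelihood ratio test and DESeq2 called 2 each, against 1641 and 1459 of all 15775 genes.

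After UNC0642 all 9 estimates were above 0, where 50.3% of all genes were below, from 0.025 (Pou4f1) to 0.27 (Sncg), with a median of 0.16, and none was called. No gene at all was called by the quasi-likelihood test in this comparison of 2 with 2 retinas (0% of 16321), while the likelihood ratio test called 145, DESeq2 152 and 14.7% had an unadjusted p under 0.05. None of the ganglion cell genes was among the calls of those tools. Thy1 stood at 324 and 344 CPM in controls and at 362 and 429 CPM after UNC0642. Both treated values were above both controls, and the estimate was 0.24 on the log2 scale (standard error 0.0968, adjusted p = 0.337). It was the 1 ganglion cell gene with an unadjusted p under 0.05 and the 1 whose groups did not overlap, where 26.9% of all genes lay above both controls.

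Sncg stood at 131 and 147 CPM in the UNC0642 controls and at 145 and 191 CPM in the treated retinas. Nefh stood at 154 and 182 CPM in controls and at 179 and 222 CPM after treatment. In both, 1 treated library overlapped the controls and the other lay above them. The direction depended on the controls used. Against the 9 control retinas that carry the same library series in the labels, the median of the 9 genes was −0.00041, and Pou4f2 (−0.24), Rbpms (−0.23), Pou4f1 (−0.032), Slc17a6 (−0.021) and Nefl (−0.00041) were below 0. The relatives had estimates from −0.20 (Gfap) to 0.46 (Vim), none called. Of 18 tested genes of the second ganglion cell list, 7 had estimates below 0, against 50.3% of all genes. Their median was 0.016, and none was called, so this list did not share the direction of the 9 genes.

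After Romidepsin all 9 estimates were below 0, where 51.1% of all genes were, with a median of −0.36 against −0.0088 for all genes. The lowest were those of Nefh, Pou4f2, Pou4f1 and Slc17a6. None was called by the quasi-likelihood test, 5 had an unadjusted p under 0.05 (19.4% of all genes), and the likelihood ratio test and DESeq2 each called these 4 genes lower. Of all 16049 genes tested, the likelihood ratio test called 1185 (528 lower) and DESeq2 1074 (478 lower). By the quasi-likelihood test 0.748% of all genes were called, and 0.174% were called lower. All 3 treated retinas lay below all 3 controls for 5 of the 9 genes, where 12.5% of all genes did.

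Nefh stood at 220, 172 and 197 CPM in the controls and at 145, 132 and 94.1 CPM after Romidepsin. The groups were apart, and treated replicate 3 was lowest. The log2 fold change was −0.67 (standard error 0.174, adjusted p = 0.0916). Pou4f2 (ENSMUSG00000031688, chromosome 8 from 80956908 to 80960551, minus strand), needed for ganglion cell differentiation, stood at 21.97, 15.7 and 15.8 CPM in controls and at 11.4, 10.7 and 11.8 CPM after Romidepsin. The treated values lay close together and below all controls, and the log2 fold change was −0.66 (standard error 0.174, adjusted p = 0.0933).

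Pou4f1 (ENSMUSG00000048349, chromosome 14 from 104862737 to 104867216, minus strand) stood at 65.0, 53.5 and 54.4 CPM in controls and at 39.0, 40.4 and 40.2 CPM after Romidepsin. The treated retinas lay close together and well under the lowest control, and the estimate was −0.53 (standard error 0.119, adjusted p = 0.0705), the smallest adjusted p of the 9 genes. Slc17a6 (ENSMUSG00000030500, chromosome 7 from 58877200 to 58926495, plus strand) stood at 133, 113 and 113 CPM in controls and at 89.9, 74.6 and 89.2 CPM after treatment. Its groups were apart as well, and the estimate was −0.50 (standard error 0.126, adjusted p = 0.0867).

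The other genes differed less. Nefl stood at 954, 777 and 827 CPM in controls and at 770, 717 and 683 CPM after Romidepsin, apart by a narrow margin (log2 fold change −0.24, adjusted p = 0.324). Thy1 was at −0.36 (adjusted p = 0.226), Sncg at −0.27 (0.497), Rbpms at −0.21 (0.383) and Nefm at −0.20 (0.414), each with overlapping groups. Sncg varied most, with 123, 162 and 98.9 CPM in the 3 treated retinas. The 4 genes with the largest estimates thus comprised both Pou4f factors, the heavy neurofilament chain and the glutamate transporter.

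Most other inner retina genes had estimates below 0 in the same libraries, with few calls. All 14 amacrine genes had estimates below 0 (median −0.26, none called by the quasi-likelihood test), as did 14 of 15 bipolar genes (median −0.47, 1 called) and 16 of the 18 genes of the second ganglion cell list (median −0.29). Of the second ganglion cell list none was called by the quasi-likelihood test, and 10 had an unadjusted p under 0.05, against 19.4% of all genes. The likelihood ratio test and DESeq2 called 6 each, against 1185 and 1074 of all 16049 genes. Of 7 horizontal cell genes 6 had estimates below 0 (median −0.30), and none was called by the quasi-likelihood test. The rod genes had a median of 0.47, and their summed level was 21158 to 32971 CPM in controls and 32702 to 42949 CPM after Romidepsin. Scaled to the amacrine and bipolar genes, the median of all genes moved to 0.309, 3.07% of all calls were lower in place of 23.3%, no ganglion cell gene was called, and Nefm (0.12), Rbpms (0.11), Nefl (0.084) and Sncg (0.057) turned above 0, while Nefh, Pou4f2, Pou4f1, Slc17a6 and Thy1 stayed below. Relative to the median of all genes the median of the 9 genes was −0.35 under both scalings, which again follows from the scaling itself and tests nothing. The part of the other cell types in these values was not tested.

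**Figure D3:**
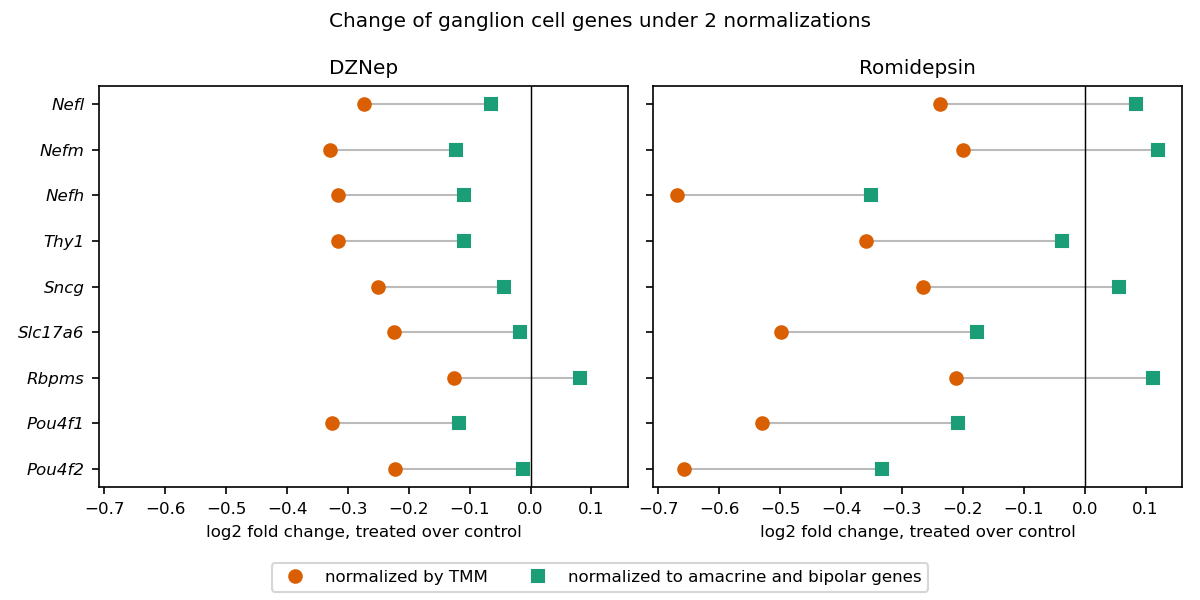
Log2 fold change of treated over control (horizontal axis) for 9 ganglion cell genes after DZNep and Romidepsin, with libraries scaled by TMM (orange circles) or to amacrine and bipolar genes (green squares). The change of scaling moved all points to the right, and Nefh, Pou4f1, Pou4f2 and Slc17a6 remained left of 0 after Romidepsin under both.

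Of 16 genes that ganglion cells raise after axon injury, 13 had estimates above 0 after Romidepsin, with a median of 0.59, where 51.1% of all genes had estimates below 0. The one called was Lif, which encodes a cytokine of the IL-6 family (log2 fold change 3.64, adjusted p = 0.0277). Without control replicate 2 or 3 or treated replicate 3 it was not called (adjusted p up to 0.124). In 9 of the 16 all treated retinas lay above all controls, as in 13.5% of all genes. These genes are made by glia and other neurons too, and the list does not mark ganglion cells. Among the relatives, Prph stood at 20.2, 36.4 and 26.8 CPM in controls and at 40.8, 84.1 and 51.6 CPM after Romidepsin (log2 fold change 1.08, adjusted p = 0.0983). It lay above all controls while Nefh lay below them. Ina stood at 271, 232 and 280 CPM in controls and at 195, 196 and 158 CPM after treatment (−0.51, adjusted p = 0.0925), Pou4f3 had a log2 fold change of −0.82 (adjusted p = 0.114) and Isl1 of −0.54 (adjusted p = 0.0741). The groups of these 3 did not overlap either, and none was called.

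The treatments were compared directly in 1 fit of all 22 retinas, with 6 pairs of treatments. Nefh and Pou4f2 differed between UNC1999 and Romidepsin. The UNC1999 libraries, controls included, carry another library series in the labels than those of the other retina experiments. A difference between these compounds therefore cannot be told apart from one between the series. For Nefh the change after UNC1999 was higher than that after Romidepsin by 0.79 on the log2 scale (standard error 0.204, adjusted p = 0.0325 in edgeR). For Pou4f2 it was higher by 0.79 (standard error 0.226, adjusted p = 0.0481). This pair differed in 5.11% of 17274 genes, against 2 of 9 ganglion cell genes. No ganglion cell gene passed in the other 5 pairs. Of all genes, 0.00579% passed between DZNep and UNC1999, 0.0232% between DZNep and UNC0642, 0.289% between DZNep and Romidepsin, 0.0116% between UNC1999 and UNC0642 and 0.0174% between UNC0642 and Romidepsin. Between DZNep and UNC1999, both used by the authors as EZH2 inhibitors, the estimate farthest from 0 was that of Nefh. It was −0.44 (standard error 0.211, adjusted p = 0.534 in edgeR), and a p above the threshold does not show that the compounds act alike. The 2 calls between UNC1999 and Romidepsin rested on single libraries. Of 22 fits that each left out 1 of the 22 retinas, 6 called no ganglion cell gene, 10 called 1, 5 called 2 and 1 called 3. Without Romidepsin control replicate 1 or treated replicate 3, or without UNC1999 control replicate 1 or 2 or treated replicate 1 or 2, none was called.

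Relatives differed in the same pair. For Prph the change after UNC1999 was lower than that after Romidepsin, by −2.75 on the log2 scale (standard error 0.440, adjusted p = 0.00373), which was opposite in sign to Nefh. Pou4f3 (1.13, adjusted p = 0.0224) and Ina (0.50, adjusted p = 0.0412) were higher after UNC1999 than after Romidepsin, as Pou4f2 and Nefh were. In the fits without 1 library the adjusted p reached 0.0741 for Pou4f3 and 0.127 for Ina, with both calls lost without Romidepsin control replicate 1 or treated replicate 3 or UNC1999 control replicate 1 or treated replicate 1, and that for Prph stayed at or under 0.0162. The control retinas of the experiments differed widely in Prph, from 16.3 to 20.3 CPM in the DZNep controls to 76.3 and 95.6 CPM in the UNC0642 controls.

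The share of the neurofilament chains in a library does not depend on scaling, since both genes are counted in the same library. This ratio was chosen after the values were seen. Nefh counts per 100 Nefl counts were 23.1, 22.1 and 23.8 in the Romidepsin controls and 18.8, 18.4 and 13.8 in the treated retinas. All treated libraries were below all controls, with means of 23.0 ± 0.882 (SD, n = 3) and 17.0 ± 2.79 (SD, n = 3). In the UNC1999 experiment the ratio was 20.3, 21.3 and 22.4 in controls and 22.6, 26.2 and 23.96 after treatment, all treated above all controls. The exact two-sided permutation p was 0.1 in each, the smallest that 3 against 3 libraries allow, and 0.711 after adjustment over 16 tests of 4 ratios in 4 experiments. After DZNep the ratio was 21.7 in both libraries, within the controls' 21.4 to 23.5, and after UNC0642 it overlapped the controls. Nefm counts per 100 Nefl counts overlapped between groups in all 4 experiments.

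**Figure D4:**
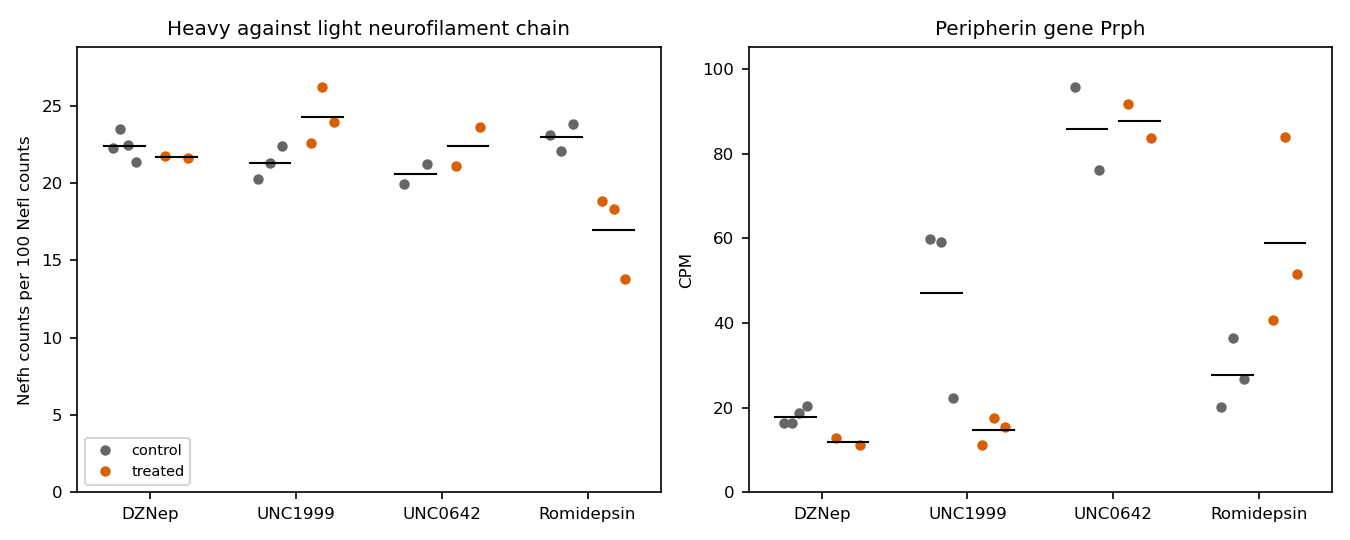
Nefh counts per 100 Nefl counts (left) and CPM of Prph (right) in each retina library by experiment, with controls in grey, treated libraries in orange and group means as black lines; both axes start at 0. The Romidepsin libraries are below their controls in the ratio and above them in Prph, and the UNC1999 libraries show the opposite order in both.

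The 9 genes varied together. Over the 22 retinas, with log2 CPM taken less the mean of the experiment's own controls, the 36 pairs of genes had a median Pearson r of 0.764. The lowest was 0.498 for Sncg and Pou4f2 and the highest 0.930 for Thy1 and Sncg. Of 12301 other genes with at least 5 CPM, those most like the mean of the 9 were Cplx1 (r = 0.969), which encodes the synaptic protein complexin 1, Vsnl1 (0.961), which encodes the calcium sensor visinin-like 1, Ina (0.951), Lgi3 (0.949) and Epb4.9 (0.946), the gene of the actin-bundling protein dematin. These libraries share controls, depth and cell makeup, and the values are a description of 22 libraries.

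In the 2 libraries of sorted control rods, most ganglion cell genes were near 0. These libraries were made with another kit than the retina libraries according to the methods, so levels are set side by side only. Pou4f2 had no counts in any of the 4 rod libraries, where 3 counts are 0.151 to 0.412 CPM. Pou4f1 had 0 and 2 counts in controls and 4 and 9 after GSK2879552, Thy1 3 and 7 against 1 and 7, and Sncg 2 and 2 against 7 and 1. Most of these counts are at or near the floor, so no fold change is given. In percent of the level in control retinas, Pou4f1 was at 0.122, Thy1 at 0.124, Sncg at 0.145, Nefm at 0.708, Nefl at 1.64, Rbpms at 1.68, Slc17a6 at 2.46 and Nefh at 13.6. Nefh stood out among the 9. The median of the 9 genes was 0.708%, against 1.60% for amacrine genes, 39.4% for bipolar genes and 383% for rod genes.

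**Figure D5:**
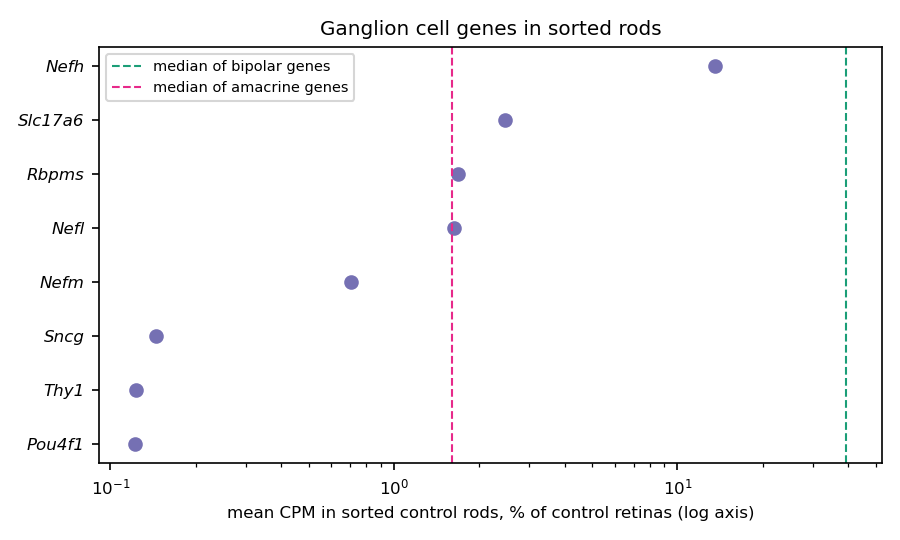
Mean CPM in sorted control rods as percent of the mean in the 12 control retinas (log axis) for the 8 ganglion cell genes with counts in control rods; dashed lines mark the medians of amacrine and bipolar genes. Pou4f1, Thy1 and Sncg lie near 0.1%, and Nefh lies above the other 7 at 13.6%; Pou4f2 and Isl2 had no counts and are not drawn.

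The filter left 5 of the 10 genes for the test of GSK2879552, and none was called. No gene was called in this comparison (0% of 14478) by the quasi-likelihood test, 4.91% had an unadjusted p under 0.05, and the likelihood ratio test called 71 and DESeq2 43, none of them a ganglion cell gene. Nefh was at 25.0 and 24.5 CPM in control rods and at 18.6 and 12.5 CPM in treated rods, on 124 to 419 counts. Both treated values were below both controls, and the log2 fold change was −0.66 (standard error 0.304, adjusted p = 0.987). Slc17a6 stood at 2.14 and 3.22 CPM in controls and at 0.728 and 1.51 CPM after treatment (−1.30, standard error 0.731, adjusted p = 0.987), on 14 to 55 counts. These 2 genes were the ones with both treated rods under both controls, where 17.3% of all genes were. Nefl, with 23.5 and 4.10 CPM in the controls, differed more between the control replicates than between the groups. The standard errors of the 5 genes, 0.304 to 0.963, were larger than any in the retinas.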

How the data were processed

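RNA was sequenced from 22 whole retinas and 4 samples of sorted rods. The authors aligned reads to NCBIM37 (mm9) with HISAT2 2.2.1 and deposited raw read counts per gene from HTSeq 0.11.2, with no normalization, per the submitters' processing notes. By the methods, rod libraries were made with another kit than retina libraries, while the labels name 1 kit for all.

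Each treatment was compared with the controls of its own experiment by edgeR 4.0.16 in R 4.3.3 (filterByExpr, TMM, quasi-likelihood test, Benjamini-Hochberg over all genes tested). Calls are adjusted p-values under 0.05. Treatments were compared in 1 fit of the 22 retinas. No shared controls were used. Retina totals of 13732959 to 36354094 counts put the floor of 3 counts at 0.0825 to 0.218 CPM, and it covers counting error only. Replicates were checked for double deposits (23 pairs, none within sampling noise). Scripts were tested on simulated data.

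The genes named are all 10 ganglion cell genes, the relatives, at most 3 genes of smallest p per list and the 5 genes most like the mean pattern. The genes and lists were chosen with earlier results of these data known. Results were recomputed with DESeq2 1.42.0, the likelihood ratio test, other normalizations, filters, controls, a replicate block, a fold threshold, and leaving out each library. Promoters came from RefSeq (GRCm38.p6), a build other than that of the counts, so no coordinates were carried between them.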

Additional observations from a re-analysis of the deposited data

Results flagged for a closer look

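Control replicate 1 of the DZNep experiment stood apart from the other 3 controls in 2 of the 9 ganglion cell genes tested in this way. Its Pou4f2 level was 11.7 CPM, where the others were 17.2 to 18.3 CPM, and the gap was 0.834 of the range of the 4 libraries. Its Thy1 level was 310 CPM, where the others were 392 to 395 CPM, with a gap of 0.970 of the range. Both gaps pass the 95% critical value of Dixon's test for 4 samples, and chance passes about 1 in 20 groups. The 9 genes share these libraries.

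The response to UNC1999 differed from that to Romidepsin in 5 genes by the test of the difference itself (edgeR, first minus second on the log2 scale). These experiments carry different library series in the labels, so compound and series cannot be told apart. The differences were 0.79 for Nefh (adjusted p = 0.0325), 0.79 for Pou4f2 (adjusted p = 0.0481), −2.75 for Prph (adjusted p = 0.00373), 1.13 for Pou4f3 (adjusted p = 0.0224) and 0.50 for Ina (adjusted p = 0.0412). In the fits that left out 1 library, the adjusted p reached 0.103 for Nefh, 0.149 for Pou4f2, 0.0741 for Pou4f3 and 0.127 for Ina, so these 4 calls were lost in some of them, and 0.0162 for Prph.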

How the results depend on the processing

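After DZNep 2 ganglion cell genes were called, against 3734 of all 16477 genes. The likelihood ratio test called 4 (3548 of all genes), DESeq2 6 (3228) and no filter on low counts 5 (3798 of 23711). The 9 control retinas of the same library series gave 1 (2493 of 17000). Scaling to amacrine and bipolar genes gave 0 (5325 of all genes). So did an absolute log2 fold change above 1 (281) and 1 fit of all 22 retinas (1333 of 17274). Leaving out 1 library gave 0 to 9. After Romidepsin none was called, against 120 of all 16049 genes. The likelihood ratio test called 4 (1185 of all genes), DESeq2 4 (1074) and no filter 1 (670 of 23466). The 22-retina fit called 5 (2987 of 17274), and the 9 controls gave 3 (2467 of 16720). Leaving out 1 library gave 0 to 1 for UNC1999 and 0 to 3 for the difference between UNC1999 and Romidepsin. For UNC0642 minus Romidepsin it gave 0 to 1, and the likelihood ratio test gave 1.

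With the 9 controls, UNC0642 values turned below 0 for Rbpms (−0.23), Pou4f1 (−0.032), Pou4f2 (−0.24), Nefl (−0.00041) and Slc17a6 (−0.021). Scaled to amacrine and bipolar genes, values turned above 0 for Rbpms after DZNep (0.081), for Nefl (0.018), Slc17a6 (0.032) and Ina (0.065) after UNC1999, and for Rbpms (0.11), Sncg (0.057), Nefl (0.084) and Nefm (0.12) after Romidepsin. Leaving out 1 library turned the sign within these ranges. For UNC1999 they were −0.015 to 0.071 (Sncg), −0.15 to 0.0028 (Nefm), −0.020 to 0.099 (Thy1), −0.088 to 0.024 (Slc17a6) and −0.052 to 0.042 (Ina). For UNC0642 they were −0.075 to 0.13 (Pou4f1), −0.062 to 0.29 (Pou4f2) and −0.0086 to 0.18 (Slc17a6). For sorted rods they were −0.63 to 1.89 (Nefl) and −0.019 to 1.82 (Nefm). The cause of these moves was not tested.

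With the replicate number as a block, 0 ganglion cell genes were called after DZNep, and 1415 of all genes in place of 3734. The block moved no count of ganglion cell genes in the other experiments. The numbers were not shown to pair the libraries, since the correlation of same-numbered deviations ran from −0.279 to 0.230 over the 5 experiments. Counts of calls over all genes moved more, from 281 to 5325 after DZNep over the other settings, 30 to 1641 after UNC1999, 0 to 1646 after UNC0642, 90 to 3350 after Romidepsin and 0 to 186 in sorted rods. Without UNC1999 control replicate 3, 2707 genes were called in place of 95. Of the second ganglion cell list, 2 genes were called after DZNep with the block and 1 in the 22-retina fit, in place of 9. Of the other genes named as called after DZNep, Gadd45a was called at an adjusted p under 0.05 in each setting without a fold threshold (highest 0.0482), and every other one was lost in at least 1. Against the 9 controls the estimate of Spp1 was −1.87.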
